A study of Mus musculus with 6 samples.

Results

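The transcripts described here belong to genes of the 2-cell-stage embryo, most of them from families with several near-identical copies in the mouse genome. Affymetrix arrays read them in the mouse embryonic stem cell line E14Tg2a. The set holds every probe set annotated to exactly 1 of 10 symbols (Tcstv1, Tcstv3, AF067061, BC080696, Zfp352, Tdpoz1, Usp17la, Ubtfl1, Spz1 and Sp110). Added to these is a probe set that reads the Zscan4 family. The annotation gives it 6 symbols, which include Zscan4a, Zscan4c, Zscan4d and Zscan4f. Together they are 14 of 45037 probe sets tested. A probe set is a group of short probes read as 1 value. The symbols were picked from results of the same arrays, where most of them stood far above control after Ncl was targeted and differed between the Ncl siRNAs. Their values are therefore given as a description, without a test, and none of their differences is evidence of its own.

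Cells of the first group had received Ncl siRNA #2, those of another group Ncl siRNA #1, and the control cells a duplex against firefly luciferase, which the cells lack. All were of the same line, with no other treatment named in the labels, and RNA was taken at 96 h. Each group held 2 arrays. Nothing in the labels says that the arrays of a group came from separate cultures, so the spread between them may be technical. Ncl encodes nucleolin, an abundant nucleolar protein needed for ribosome production.

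The 2-cell stage is when the mouse embryo first transcribes its own genome on a large scale. Many genes active then lie in repeated clusters or begin in the long terminal repeats of the endogenous retrovirus MERVL, and they are silenced again at later cleavage stages. In cultures of embryonic stem cells, a rare and transient subset of cells, called 2-cell-like, transcribes these genes again. The homeobox factor Dux switches many of them on, and Zscan4 proteins, zinc finger proteins linked to telomere maintenance, are their best known marker. On arrays of whole cultures, more cells with such RNA and more of it in each cell cannot be told apart.

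RefSeq start regions (GRCm38.p6, 250 bases before and 50 after each annotated start) were available for 10 symbols through 11 promoters, since Sp110 has 2 starts. The 4 printed first are shown because they share a 12-base word, and the last because it represents the Zscan4 genes. Each reads 5′ to 3′ along its own gene, with the matches to the searched motifs in capitals. The regions are AF067061 at chr13:120262845-120263144 (plus strand), Zfp352 at chr4:90218570-90218869 (plus strand), Tdpoz1 at chr3:93676234-93676533 (minus strand), the first start of Sp110 at chr1:85603842-85604141 (minus strand) and Zscan4c at chr7:11005495-11005794 (plus strand).
AF067061: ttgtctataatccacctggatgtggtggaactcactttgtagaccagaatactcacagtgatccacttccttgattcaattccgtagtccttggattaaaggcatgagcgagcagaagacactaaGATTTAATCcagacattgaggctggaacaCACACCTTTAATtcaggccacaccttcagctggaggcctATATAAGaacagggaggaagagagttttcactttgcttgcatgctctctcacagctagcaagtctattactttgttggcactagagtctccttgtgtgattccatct
Zfp352: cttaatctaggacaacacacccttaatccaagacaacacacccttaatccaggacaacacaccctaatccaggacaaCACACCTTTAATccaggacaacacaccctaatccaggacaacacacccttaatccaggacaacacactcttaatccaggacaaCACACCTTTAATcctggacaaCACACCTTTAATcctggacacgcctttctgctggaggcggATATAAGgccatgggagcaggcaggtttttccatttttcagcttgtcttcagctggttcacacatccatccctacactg
Tdpoz1: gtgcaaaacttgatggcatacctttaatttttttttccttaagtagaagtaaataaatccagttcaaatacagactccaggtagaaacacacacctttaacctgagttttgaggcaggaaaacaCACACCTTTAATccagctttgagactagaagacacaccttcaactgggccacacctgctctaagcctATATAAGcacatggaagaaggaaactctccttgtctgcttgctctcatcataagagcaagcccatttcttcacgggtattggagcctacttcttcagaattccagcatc
Sp110: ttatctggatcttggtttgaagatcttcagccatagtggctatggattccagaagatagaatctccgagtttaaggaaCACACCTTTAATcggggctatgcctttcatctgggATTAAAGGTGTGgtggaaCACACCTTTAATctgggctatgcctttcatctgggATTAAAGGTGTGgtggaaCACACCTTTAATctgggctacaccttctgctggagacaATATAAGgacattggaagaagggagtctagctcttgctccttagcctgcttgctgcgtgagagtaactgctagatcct
Zscan4c: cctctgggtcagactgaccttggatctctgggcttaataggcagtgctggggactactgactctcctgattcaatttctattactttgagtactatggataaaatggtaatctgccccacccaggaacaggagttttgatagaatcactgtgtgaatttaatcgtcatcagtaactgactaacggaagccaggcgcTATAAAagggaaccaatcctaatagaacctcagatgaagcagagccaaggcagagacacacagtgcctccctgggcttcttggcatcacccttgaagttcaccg

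Among all words of 12 letters, on either strand, none lay in the promoters of more of the 7 single-symbol member genes with a promoter than CACACCTTTAAT (reverse complement ATTAAAGGTGTG). It was in 4 of them. One other word, which overlaps it, lay in as many genes and had fewer copies. The word was found by searching these same promoters, so its presence there is fixed by the choice. The Sp110 promoter held 5 copies, of which 2 were on the reverse strand. The Zfp352 promoter held 3 copies, while AF067061 and Tdpoz1 held 1 copy each. Over all 32851 promoters of the table, 56 held the word (0.17%), 17 held at least 3 copies (0.0517%), and no other promoter reached the 5 copies of Sp110. The same 4 promoters also held the motif ATATAAG, which is like the TATA box and was chosen after the promoters were read. It was in 2.52% of all promoters. It began 28 bases before the start in Sp110, 29 in Zfp352, 57 in AF067061 and 59 in Tdpoz1.

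GATTNAATC, the core of the motif bound by mouse Dux, was in the AF067061 promoter, from 125 to 117 bases before the start, and in 0.268% of all promoters. A longer form of this motif, with 1 more base at each end, was in 0.0335% of all promoters and in no member promoter. The TATA box motif TATAAA was in the 3 Zscan4 promoters and in 13.6% of all. All motifs were searched on both strands. Zscan4c and Zscan4f were identical at 99.3% of 277 aligned bases, Zscan4c and Zscan4d at 97.2% of 289, and Zscan4d and Zscan4f at 97.4% of 266. The second start of Sp110 and the promoters of Usp17la, Ubtfl1 and Spz1 held none of these motifs.

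**Figure D1:**
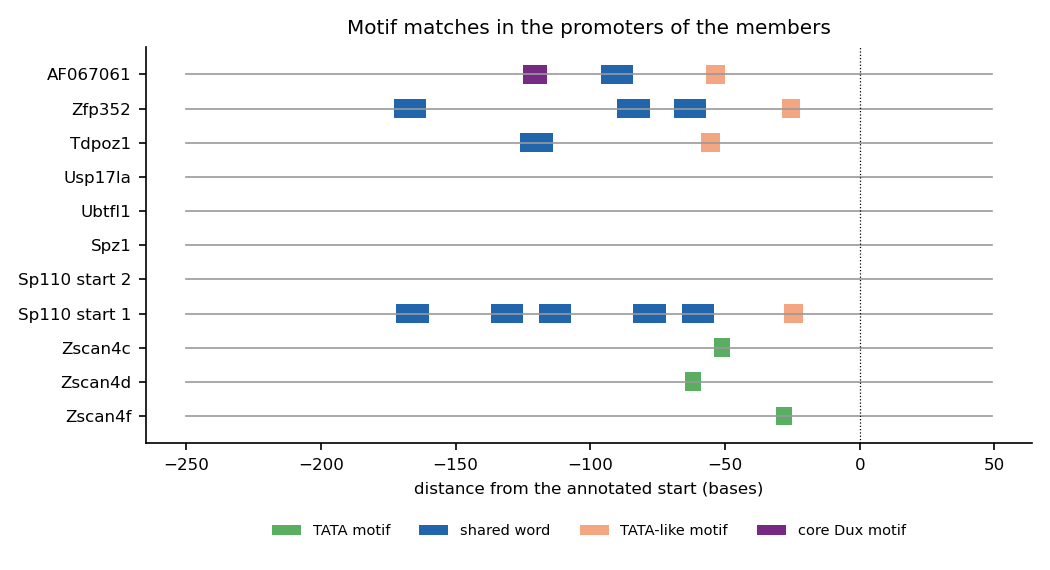
Motif matches in 11 promoters of member genes, drawn along the distance from the annotated start in bases, which runs over 250 bases before and 50 after it. Each mark is a match on either strand. Copies of the shared word of 12 bases stand between 173 and 55 bases before the start in 4 promoters, and the TATA-like motif lies nearer to the start in each of these 4.

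Array values ran from 2.47 to 15.34 on the log2 scale. Probe sets differed between the paired arrays of siRNA #2 by a median of 0.0943, of siRNA #1 by 0.163 and of control by 0.124, and 2 arrays a group limit the precision. Ncl was lower in all 4 Ncl siRNA arrays on each of its 5 probe sets, by 0.46 to 1.5 for the mean of both siRNAs, and siRNA #2 and siRNA #1 differed by -0.15 to 0.15 there (limma adjusted p from 0.352 to 0.953). Transcripts of other tissues separated control from the Ncl siRNA arrays. Of all genes, 19.9% were lower in the mean of both Ncl siRNAs than in control, and 9 of 10 lung epithelium markers were among them. Their mean level was 4.94 and 5.03 with siRNA #2, 4.72 and 4.98 with siRNA #1, and 8.50 and 8.68 in control. The bacterial poly-A controls (24 probe sets) averaged 8.42 with siRNA #2, 8.71 with siRNA #1 and 7.66 in control. For 18S ribosomal RNA (3 probe sets) the averages were 13.11 with siRNA #2, 13.08 with siRNA #1 and 12.10 in control. Their part in any difference from control given below was not tested. Between the Ncl siRNAs, none of the 10 lung markers passed limma's adjusted threshold, and at an unadjusted p under 0.05 there was 1 higher and 1 lower with siRNA #2.

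Most members showed a step of the same kind: highest with siRNA #2, lower with siRNA #1, and lowest in control. In 11 of 14 probe sets every siRNA #2 array lay above every siRNA #1 array, and every siRNA #1 array above both control arrays. Such a step was seen in 4.77% of all probe sets. Both siRNA #2 arrays lay above both siRNA #1 arrays in 13 of 14 (21.3% of all probe sets), and all 4 Ncl siRNA arrays lay above both control arrays in 11 of 14 (20.1% of all). Over all probe sets the fit called 0.959% higher and 1.95% lower with siRNA #2 than with siRNA #1 (432 and 877 probe sets, but 645 and 541 after quantile normalization). For the mean of both siRNAs against control it called 15.2% higher and 16.2% lower. The choice of the members rests on these contrasts, so nothing is read from the counts. The median difference of siRNA #2 minus siRNA #1 was 1.93 over the 14 probe sets and -0.01 over all probe sets, 95% of which lay within 0.43 of 0. The median difference from control was 3.63 with siRNA #2 and 2.00 with siRNA #1, against -0.03 and -0.05 over all probe sets.

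**Figure D2:**
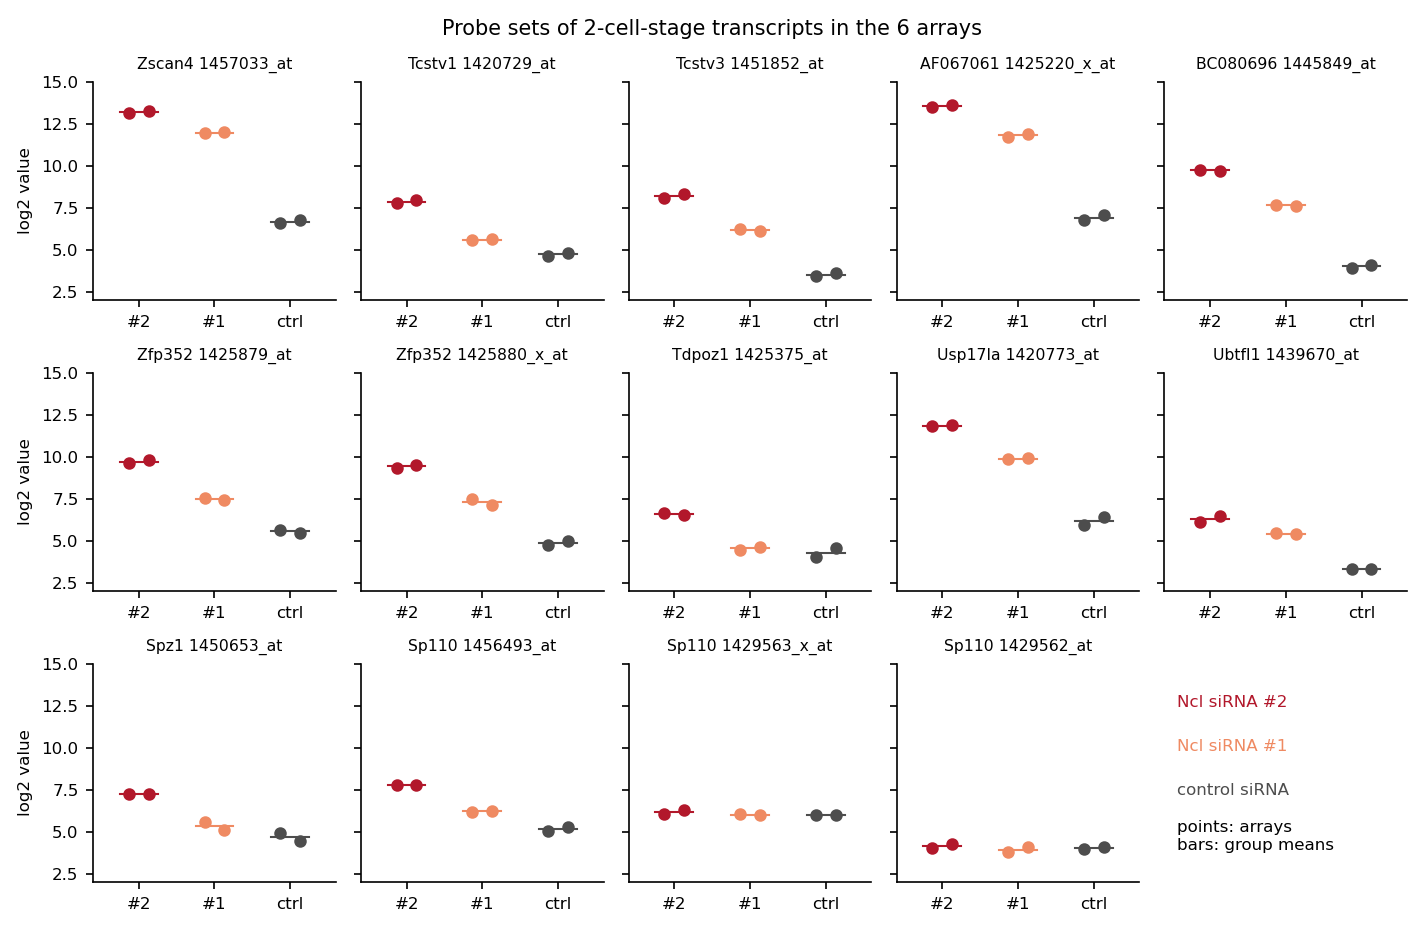
Deposited log2 value of each of the 14 member probe sets in the 6 arrays, with siRNA #2 first, siRNA #1 next and control last. Points are single arrays and bars group means. In 11 of the 14 panels the 3 groups form separate steps, and the last 2 Sp110 probe sets and Tdpoz1 are the exceptions.

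The Zscan4 probe set read 13.14 and 13.22 with siRNA #2, 11.93 and 12 with siRNA #1, and 6.61 and 6.75 in control. No arrays of different groups overlapped, and no group's arrays were more than 0.14 apart. The difference from control was 6.50 with siRNA #2 (90.5-fold, SE 0.07) and 5.29 with siRNA #1 (39.1-fold, SE 0.07). Among the 12 probe sets that remain when 2 of Sp110 are set aside, Zscan4 had the largest difference from control with siRNA #1. Its difference of siRNA #2 minus siRNA #1, 1.21 (SE 0.07), was smaller than that of every other one of these 12 except Ubtfl1. It is annotated to several genes, so its value cannot be given to any single Zscan4 copy.

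AF067061, a gene known here only by the name of a sequence record, was read by a probe set ending in _x_at, a suffix that marks probes which may also read related sequences. Its values were 13.46 and 13.61 with siRNA #2, 11.72 and 11.90 with siRNA #1, and 6.77 and 7.05 in control. The groups did not overlap. With siRNA #2 it stood 6.62 above control (98.6-fold, SE 0.09), the largest difference of any member, and with siRNA #1 it stood 4.90 above (29.9-fold, SE 0.09). Between the siRNAs it differed by 1.72 (3.29-fold, SE 0.09).

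Tcstv1 and Tcstv3 belong to the 2-cell-stage variable group, a small family of genes named for the stage at which they are transcribed. Tcstv1 read 7.77 and 7.96 with siRNA #2, 5.57 and 5.65 with siRNA #1, and 4.66 and 4.84 in control. It had the largest difference of siRNA #2 minus siRNA #1 of all 45037 probe sets, 2.26 (4.78-fold, SE 0.16), while siRNA #1 minus control was 0.86 (SE 0.16). With siRNA #2 it stood 3.12 above control (SE 0.16). Tcstv3 read 8.11 and 8.30 with siRNA #2, 6.24 and 6.14 with siRNA #1, and 3.45 and 3.60 in control. Both of its control arrays lay below the lower quartile of their array, 4.31 to 4.32 in control, where signals are near the bottom of the range. Its difference of siRNA #2 minus siRNA #1 was 2.02 (4.04-fold, SE 0.16), and its difference from control was 4.67 with siRNA #2 and 2.66 with siRNA #1 (SE 0.16 each). The step from control to siRNA #1 was therefore larger in Tcstv3 than in Tcstv1, and the step between the siRNAs similar in both.

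BC080696, also known here by the name of a sequence record, lies among Pramel genes in GRCm38.p6. It read 9.73 and 9.71 with siRNA #2, 7.67 and 7.61 with siRNA #1, and 3.94 and 4.13 in control. Arrays of a group differed by at most 0.19, and both control values lay below the lower quartile. Its difference from control was 5.69 with siRNA #2 and 3.61 with siRNA #1 (SE 0.13 each), and between the siRNAs it was 2.08 (4.23-fold, SE 0.13).

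Zfp352 encodes a zinc finger protein of the early embryo. It was measured by a pair of probe sets, of which the second ends in _x_at. The first read 9.61 and 9.81 with siRNA #2, 7.56 and 7.43 with siRNA #1, and 5.65 and 5.49 in control. The second read 9.32 and 9.52 with siRNA #2, 7.46 and 7.14 with siRNA #1, and 4.74 and 4.99 in control. Both showed the same steps without overlap. Between the siRNAs they differed by 2.22 (4.65-fold, SE 0.13) and 2.13 (4.36-fold, SE 0.15), next after Tcstv1 among all probe sets. From control, the first differed by 4.14 with siRNA #2 and 1.93 with siRNA #1, and the _x_at probe set by 4.55 and 2.43.

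Usp17la belongs to a repeated family of ubiquitin-specific proteases, enzymes that remove ubiquitin from proteins. It read 11.83 and 11.87 with siRNA #2, 9.86 and 9.92 with siRNA #1, and 5.94 and 6.39 in control. The control arrays were 0.46 apart, wide for this set but far below the step to siRNA #1. Its difference from control was 5.68 with siRNA #2 and 3.72 with siRNA #1 (SE 0.12 each), and between the siRNAs it was 1.96 (3.89-fold, SE 0.12).

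Tdpoz1 encodes a protein with a MATH and a POZ domain, a layout shared with the ubiquitin ligase adaptor Spop. It read 6.63 and 6.52 with siRNA #2, 4.48 and 4.66 with siRNA #1, and 4.04 and 4.57 in control. The siRNA #1 arrays overlapped the control arrays, and siRNA #2 stood above both groups. The control arrays were 0.54 apart, the largest gap of any member within a group. Between the siRNAs Tdpoz1 differed by 2.01 (4.02-fold, SE 0.19), while siRNA #1 minus control was 0.26 (SE 0.19), or 0.53 without the second control array and 0.17 without the second siRNA #1 array. Without the first control array it was 0.

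Ubtfl1 encodes a protein with HMG boxes related to the ribosomal RNA transcription factor Ubtf, and Spz1 a leucine zipper factor known from the testis. Ubtfl1 read 6.10 and 6.48 with siRNA #2, 5.48 and 5.38 with siRNA #1, and 3.35 and 3.36 in control. Both control values lay below the lower quartile. Of the 12 probe sets above it had the smallest difference between the siRNAs, 0.86 (1.82-fold, SE 0.18), and it stood 2.93 above control with siRNA #2 and 2.07 with siRNA #1. Spz1 read 7.24 and 7.28 with siRNA #2, 5.57 and 5.13 with siRNA #1, and 4.92 and 4.46 in control. Its groups did not overlap, but the lower siRNA #1 array was only slightly above the higher control array. The Spz1 difference between the siRNAs was 1.90 (3.74-fold, SE 0.20) and that of siRNA #1 minus control 0.67 (SE 0.20), or 0.43 without the second control array.

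Sp110 encodes a nuclear body protein that responds to interferon, and its 3 probe sets did not all show the step. The brightest with siRNA #2 read 7.77 and 7.80 with siRNA #2, 6.18 and 6.26 with siRNA #1, and 5.08 and 5.29 in control. The 3 groups were separate, with 1.57 (2.96-fold, SE 0.15) between the siRNAs. The one ending in _x_at read 6.07 and 6.31 with siRNA #2, 6.04 and 5.99 with siRNA #1, and 6.02 and 5.98 in control. The dimmest read 4.05 and 4.30 with siRNA #2, 3.78 and 4.08 with siRNA #1, and 4.01 and 4.12 in control. Neither of these last probe sets differed from control by more than 0.19 with either siRNA, and the last one lay below the lower quartile in all 6 arrays, where signals are near the bottom of the range. Which Sp110 transcripts each probe set reads is not given in the files, so the values were not assigned to the promoters shown above.

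**Figure D3:**
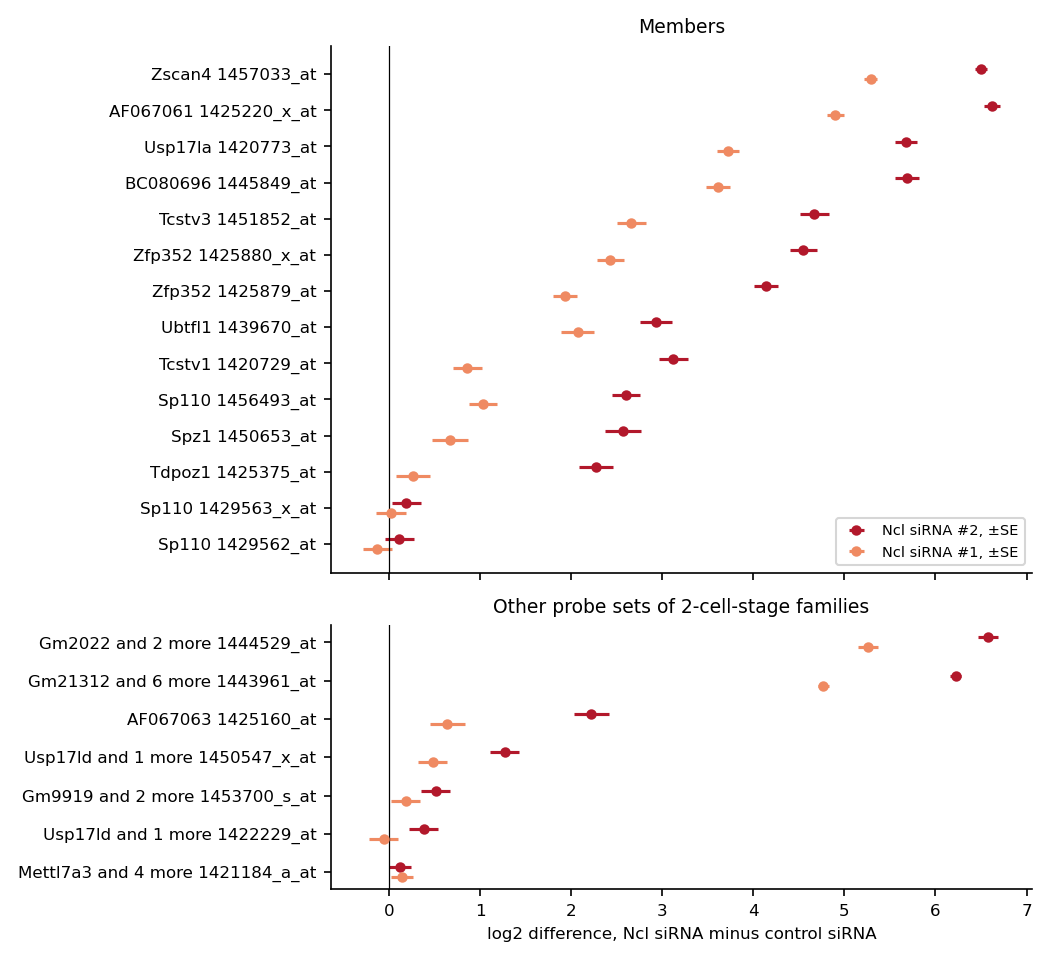
Log2 difference from control of each of the 14 member probe sets with siRNA #2 and with siRNA #1, with bars for the SE of the fit. With siRNA #2 the values run from 0.11 to 6.62 and with siRNA #1 from -0.13 to 5.29, the lowest in both being the dimmest Sp110 probe set. The lower panel gives 7 other probe sets of 2-cell-stage families in the same way, of which 2 lie above 4.

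The order of the members depended on the comparison. By difference from control with siRNA #1, Zscan4 and AF067061 came first, followed by Usp17la and BC080696. Tcstv1, Spz1 and Tdpoz1 came last among the 12 probe sets left when 2 of Sp110 are set aside. By difference between the siRNAs, Tcstv1 and Zfp352 came first, with BC080696, Tcstv3, Tdpoz1 and Usp17la next, and these neighbours in the order lay within about their standard errors of each other. Zscan4 and Ubtfl1 came last. Over these 12 the difference between the siRNAs ran from 0.86 to 2.26 with a median of 1.98, while siRNA #1 minus control ran from 0.26 to 5.29. Members filled the first 7 places of all probe sets in the difference of siRNA #2 minus siRNA #1 and 10 of the first 30. This was part of how they were chosen.

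**Figure D4:**
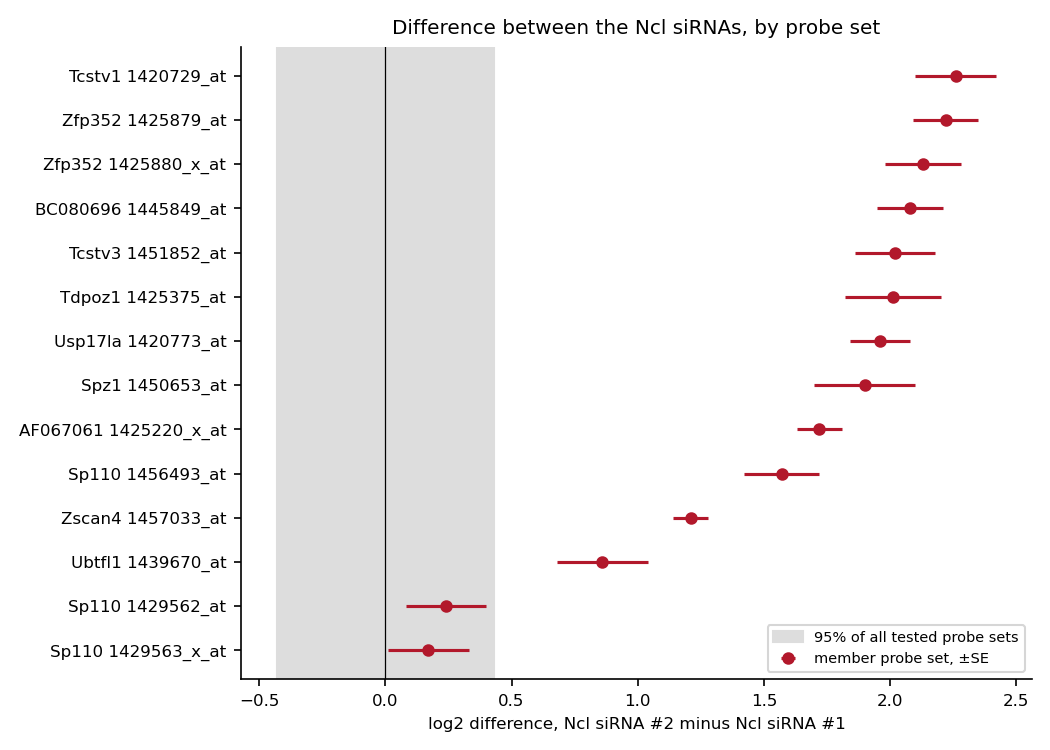
Log2 difference of siRNA #2 minus siRNA #1 for the member probe sets, with bars for the SE, beside the range of ±0.43 that holds 95% of all probe sets. Of the 14, 12 lie between 0.86 and 2.26, and the last 2 are the Sp110 probe sets at 0.17 and 0.24.

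Other probe sets of 2-cell-stage families, which are no members, were then tested in the fit over all probe sets. They were named after their values were seen, so their adjusted p-values are no independent evidence. Over all probe sets, 0.959% were higher and 1.95% lower with siRNA #2 than with siRNA #1. A probe set of 7 symbols that include Gm4340 and Gm6763 read 14.28 and 14.37 with siRNA #2, 12.86 and 12.89 with siRNA #1, and 8.14 and 8.06 in control. It was 1.45 higher with siRNA #2 than with siRNA #1 (SE 0.06, limma adjusted p = 7.79e-10). The mean of both siRNAs was 5.50 above control (SE 0.05, limma adjusted p = 5.33e-20). All 6 of its symbols that had a promoter in the RefSeq table held 3 copies of the 12-base word shown above. These 6 are read by the same probe set, so they do not count as separate observations. They are also among the 17 promoters of the whole table with at least 3 copies. The probe set of Gm2022, Gm8300 and Gm5662 read 10.92 and 10.74 with siRNA #2, 9.40 and 9.63 with siRNA #1, and 4.26 and 4.24 in control. It was 1.31 higher with siRNA #2 than with siRNA #1 (SE 0.11, limma adjusted p = 4.72e-06). AF067063 was 1.58 higher (SE 0.19, limma adjusted p = 1.46e-04), and an _x_at probe set of Usp17lc and Usp17ld was 0.79 higher (SE 0.16, limma adjusted p = 0.0128). The Usp17lc and Usp17ld call was lost without either siRNA #2 array (adjusted p = 0.235 and 0.0776) and without a variance trend (0.0908). The other 3 family probe sets did not pass in that comparison: a second one of Usp17lc and Usp17ld (0.45, adjusted p = 0.154), one shared by Gm9919, Gm4981 and Duxf3 (0.33, adjusted p = 0.319) and one of the Mettl7a group (-0.03, adjusted p = 0.933).

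A list of 44 other genes of the 2-cell stage was measured through 13 genes with a probe set of their own. This list, like the lists of regulators and markers, was drawn up with earlier results of these data known. Its counts are therefore no independent evidence. For the mean of both Ncl siRNAs against control, 10 of the 13 genes were higher, 1 was lower and 2 did not pass, beside 19.3% of all genes higher and 19.9% lower. Their median difference was 0.58 against -0.05 over all genes. With siRNA #1 alone 8 were higher, and with siRNA #2 alone 8, but these were not all the same genes. From here on, rises and falls against control are those of the mean of both siRNAs unless a single siRNA is named. Between the siRNAs, 4 were higher with siRNA #2 (1.45% of all genes), none was lower (2 at an unadjusted p under 0.05 in limma), and the median was 0.30 against -0.03. Only 2 were higher when the variance was fitted without a trend, where Gm20767 (adjusted p = 0.0539) and Arg2 (adjusted p = 0.139) lost their calls. Gm20767 read 11.58 and 11.66 with siRNA #2, 9.72 and 9.82 with siRNA #1, and 3.76 and 4.61 in control. Its rise with both siRNAs against control, 6.51 (SE 0.16, limma adjusted p = 7.97e-15), was the largest rise of all probe sets, though not the largest change in size. Its control arrays were 0.85 apart and 1 of them lay below the lower quartile, so the size is uncertain (6.08 to 6.93 with each array left out). Arg2, which encodes the mitochondrial arginase, read 8.47 and 8.51 with siRNA #2, 7.81 and 7.64 with siRNA #1, and 4.42 and 4.0 in control. It rose by 3.90 against control (SE 0.14, limma adjusted p = 1.05e-12). Between the siRNAs Arg2 was 0.76 higher with siRNA #2 (limma adjusted p = 0.0122), a call lost without either siRNA #2 array (adjusted p = 0.194 and 0.23). Fgf1, a fibroblast growth factor, rose by 2.02 (SE 0.12, limma adjusted p = 7.79e-10) and was 1.13 higher with siRNA #2 than with siRNA #1 (limma adjusted p = 1.52e-04). Ddit4l, a negative regulator of mTOR signalling, also rose, by 1.57 (SE 0.06, limma adjusted p = 4.96e-12). Between the siRNAs it differed by 0.03 (SE 0.07, limma adjusted p = 0.876). Phf11d was the gene that fell, by 1.06. Lmx1a, a LIM homeobox factor named outside the rule as the fourth gene that differed between the siRNAs, was 1.24 higher with siRNA #2 (limma adjusted p = 2.96e-04).

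Duxf3, the copy of the activator Dux with a probe set of its own, was also chosen after its values were seen. It read 5.20 and 5.33 with siRNA #2, 4.80 and 4.68 with siRNA #1, and 4.62 and 4.47 in control. For the mean of both siRNAs it was 0.46 above control (SE 0.15, limma adjusted p = 0.0244). That call was lost without the first or the second siRNA #2 array (0.49 and 0.43) and without the second control array (0.38). With siRNA #2 alone the difference was 0.72 (limma adjusted p = 0.00344), or 0.66 without the second siRNA #2 array, where the call was lost. With siRNA #1 alone it was 0.20, which did not pass (limma adjusted p = 0.444). The probe set shared by Gm9919, Gm4981 and Duxf3 did not pass for the mean of both siRNAs (0.35, limma adjusted p = 0.0756). Between the siRNAs it was 0.52 higher with siRNA #2, which did not pass (SE 0.17, limma adjusted p = 0.116).

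Genes known to hold the 2-cell programme in check were measured as a list of 24, of which 23 had a probe set. Against control 12 fell, 1 rose (Atrx, 0.36) and 10 did not pass, beside 19.3% of all genes higher and 19.9% lower, with a median of -0.17 against -0.05 over all genes. The list is bright, with mean levels from 10.59 to 10.87 by array against array medians of 5.73 to 5.79. Bright genes have smaller SE values in this fit, so smaller changes pass and the shares over all genes are not a like background. Mga, a subunit of the PRC1.6 repressor complex, fell by 1.02 (SE 0.07, limma adjusted p = 6.79e-09). Chaf1b, a subunit of the histone chaperone CAF-1, fell by 0.56 (SE 0.10, limma adjusted p = 1.90e-04), and Zfp42, the pluripotency marker also called Rex1, fell by 0.55 (SE 0.04, limma adjusted p = 1.06e-08). Cbx3, a heterochromatin protein, fell by 0.51 (SE 0.15, limma adjusted p = 0.0171), but by 0.27 without the first control array. Its call was lost there and without the second siRNA #2 array. The Cbx3 probe set was the dimmest of the list, with 6.06 and 6.01 with siRNA #2, 6.11 and 5.86 with siRNA #1, and 6.76 and 6.28 in control. With siRNA #2 alone its difference did not pass (-0.49, limma adjusted p = 0.0523). Between the siRNAs, where 3.11% of all genes were lower and 1.45% higher, only L3mbtl2 (-0.33) and Zfp42 (-0.18) passed, both lower with siRNA #2. That count was 0 when 1 of the arrays was left out, except for the second siRNA #1 array, without which it was 6. It was also 0 after quantile normalization and without a variance trend.

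Of 10 known activators, 9 were measured, and against control 3 rose, 1 fell and 5 did not pass, beside the same 19.3% of all genes higher and 19.9% lower. Nelfa, a subunit of the negative elongation factor, rose by 0.80 (SE 0.06, limma adjusted p = 7.26e-09) and was 0.56 higher with siRNA #2 than with siRNA #1 (limma adjusted p = 9.06e-05), a call lost without a variance trend (adjusted p = 0.106). It read 11.48 and 11.59 with siRNA #2, 11.02 and 10.93 with siRNA #1, and 10.47 and 10.45 in control, the same order as most members. Dppa2, which acts upstream of Dux, rose by 0.47 (SE 0.04, limma adjusted p = 5.54e-08). Kdm5b, a histone demethylase, fell by 0.47 (SE 0.05, limma adjusted p = 2.01e-06). Gata2 rose by 0.43 (SE 0.12, limma adjusted p = 0.00887), or by 0.25 without the first control array (adjusted p = 0.223).

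**Figure D5:**
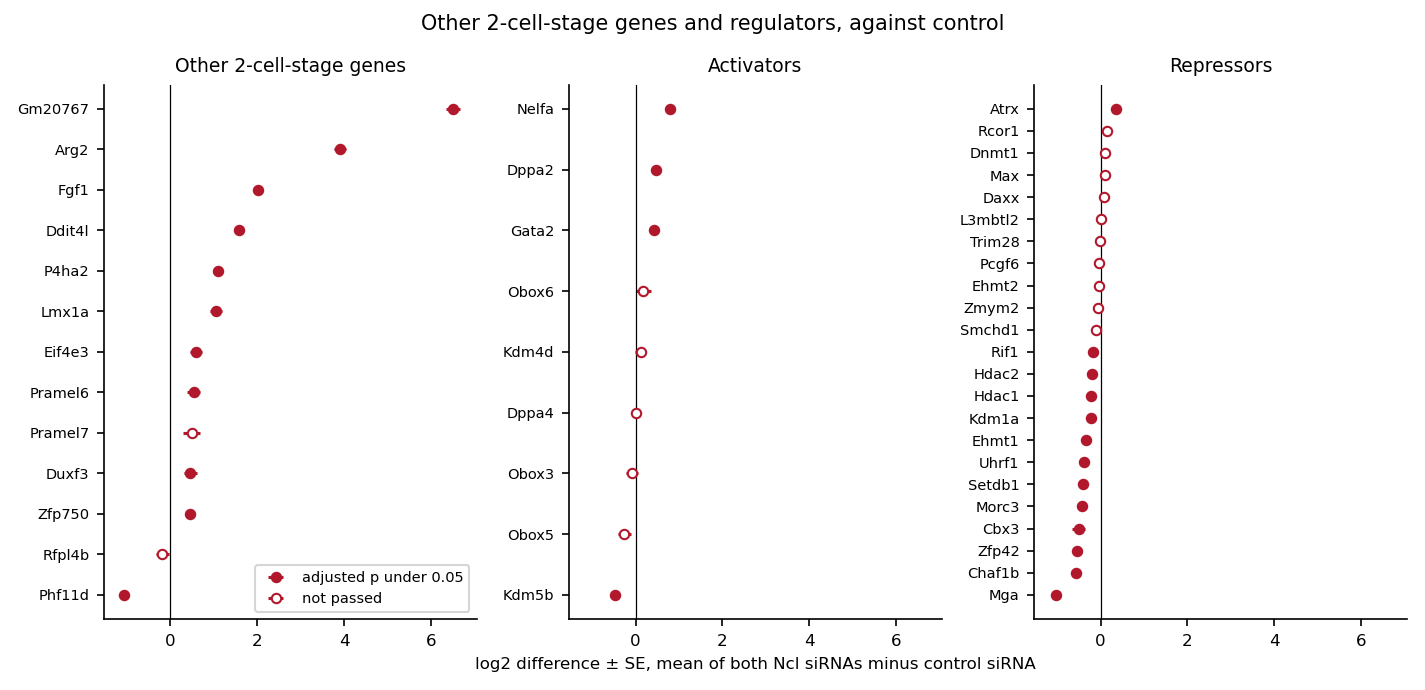
Log2 difference of the mean of both Ncl siRNAs minus control, with bars for the SE, for 13 other 2-cell-stage genes, 9 activators and 23 repressors of the 2-cell programme. Filled points passed at an adjusted p under 0.05. Gm20767 at 6.51 and Arg2 at 3.90 lie farthest from 0, while Nelfa stands at 0.80 and Mga at -1.02.

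Marker lists were read beside these results. Over all genes 19.3% were higher and 19.9% lower against control, and 1.45% were higher and 3.11% lower with siRNA #2 than with siRNA #1. Embryonic stem cell markers were bright in every array, so smaller changes passed in them than over all genes. Of 10 such markers, 8 fell against control and 1 rose, and 8 were lower with siRNA #2 than with siRNA #1. Their mean level was 11.95 and 11.97 with siRNA #2, 12.23 and 12.19 with siRNA #1, and 12.56 and 12.54 in control, so it ran in the opposite order to the members. Its part in the members' values was not tested. Of 16 measured interferon response genes, which were read beside Sp110, 4 fell and none rose against control, a share of fallen genes near that over all genes. Between the siRNAs 1 was lower with siRNA #2 (Ddx58, -0.45) and none higher. At an unadjusted p under 0.05 in limma, 0 rose and 5 fell against control, and 1 was higher and 3 were lower with siRNA #2. Of 10 oocyte markers 1 rose and 3 fell, and of 12 testis germ cell markers 1 rose (Sycp1, 0.91) and 1 fell (Ldhc, -1.18). None of these oocyte and testis markers passed between the siRNAs in limma, where 1 of them had an unadjusted p under 0.05. Of 10 leukocyte markers 1 rose and 3 fell, with Lyz2 at -3.52, and of 3 red blood cell markers 1 fell (Alas2, -0.51). In neither list did a gene pass between the siRNAs, and 1 of each had an unadjusted p under 0.05 in limma.

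The genes whose pattern over the 6 arrays was closest to the members' mean were sought among 385 non-member genes with a range of at least 2. The highest Pearson correlations, over arrays that fall into 3 groups, belonged to Hspb2 (0.9991), Il6ra (0.9986), Anxa2 (0.9971), Zfp560 (0.9967), Emp1 (0.9964) and Rnf128 (0.9959). Hspb2, a small heat shock protein gene, read 9.18 and 9.24 with siRNA #2, 8.23 and 8.09 with siRNA #1, and 6.62 and 6.76 in control. Rnf128, which encodes a ubiquitin ligase of membranes, had the largest steps of these 6. It read 11.14 and 11.10 with siRNA #2, 9.52 and 9.61 with siRNA #1, and 6.58 and 6.71 in control.

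Genes up to 8 places from a member in GRCm38.p6 were also read. Of 30 measured neighbours that are no members, 10 rose and 3 fell against control (19.3% and 19.9% of all genes), with a median of 0.08. Between the siRNAs 4 were higher and 1 lower (Serinc5, -0.92), beside 1.45% of all genes higher and 3.11% lower. The 4 higher ones, AF067063, D13Ertd608e, BC147527 and Gm20767, all lie near Tcstv1, AF067061 or Tcstv3 on chromosome 13. AF067063 and Gm20767 were already given above, so they are not separate results here. Whether the probe sets of these 4 also read the members was not tested. D13Ertd608e was 1.54 higher with siRNA #2 than with siRNA #1 (SE 0.16, limma adjusted p = 3.20e-05) and rose by 1.84 against control (SE 0.14, limma adjusted p = 1.68e-08). BC147527 was 0.52 higher with siRNA #2 (SE 0.13, limma adjusted p = 0.0432). That call was lost in limma without a variance trend (adjusted p = 0.154) and after quantile normalization (0.0795). With only the groups compared (0.0531), array weights (0.0504) or median centring (0.0503) it was narrowly lost. It was also lost without the first or second siRNA #2 array (difference 0.61 and 0.44) or the first siRNA #1 array (0.49). AF067063 and D13Ertd608e are next to each other, with 1 annotated gene between D13Ertd608e and Tcstv1. Between Tcstv1 and AF067061 lie 21 annotated genes, and between AF067061 and Tcstv3 lie 4. Near the other members, no measured neighbour passed as higher with siRNA #2 than with siRNA #1. However, no neighbour of BC080696, Usp17la or the Zscan4 genes had a probe set of its own. The Tdpoz copies near Tdpoz1 had none either, so a shared rise could not have been seen at these places.

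Outside the members, 8 genes with a probe set of their own held the 12-base word in a promoter. None passed between the siRNAs in limma, where 1 had an unadjusted p under 0.05 (1.36% of all genes with a promoter were higher). Against control Gm33248, with 3 copies, rose by 0.96 (SE 0.15), Sgk1, a kinase of the serum and glucocorticoid response with 1 copy, rose by 0.53 (SE 0.04), and Tmem144, also with 1 copy, fell by 0.71 (SE 0.13), beside 19.6% of genes with a promoter that rose.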

How the data were processed

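The deposited values were taken as log2 probe set signals, from their range of 2.47 to 15.34, and as normalized between arrays, from array medians of 5.73 to 5.79. How the authors corrected background, summarised probes and normalized is not given in the sources used here. RNA was extracted with a Qiagen kit and labelled with an Affymetrix kit, per the labels' protocols. Of 45101 probe sets, 64 control probe sets were left out of the tests. Of the 45037 tested, 34945 carried 1 symbol in GEO's platform annotation, 932 several and 9160 none.

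All probe sets and 6 arrays entered 1 fit of 3 group means, made with limma 3.58.1 and R 4.3.3, whose variances followed mean signal (3 residual and 13 prior degrees of freedom). Benjamini-Hochberg adjustment covered all probe sets, with a threshold of 0.05. No scaling or filter was added. The procedure was tested on simulated data. Genes in lists and neighbours were read on the brightest probe set with 1 symbol (18193 genes), and background shares of genes use the same probe sets and adjustment. SE values come from the pooled spread.

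The members and the lists were chosen with earlier results of these data known. The design had planned a test of siRNA #2 against siRNA #1 for members. It was left out, since the choice of members rests on that difference too. The named genes were all member probe sets, at most 4 genes of a list with the largest change against control among called ones, the 6 genes most alike to the members, and Ncl. Other genes, among them Lmx1a, Duxf3, Atrx, L3mbtl2, Phf11d, Ddx58, Serinc5, other family probe sets and promoter genes, were named after their values were seen. The 12-base word, ATATAAG and the neighbours within 8 genes were chosen after the data were seen.

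Replicate numbers were not used as pairs. Deviations of arrays with the same number correlated by 0.017, 0.001 and 0.016. Alternatives were quantile normalization, median centring, no variance trend, robust variances, only the groups compared, a replicate block, array weights, 1 probe set per gene, leaving out dim or _x_at and _s_at probe sets, an adjusted p under 0.01, and leaving out each array. Motifs were searched in RefSeq promoters of GRCm38.p6 with Python 3.11.15 and aligned with Biopython 1.88.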

Additional observations from a re-analysis of the deposited data

How the results depend on the processing

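No member difference of siRNA #2 minus siRNA #1 changed sign under the 16 alternatives. Against control, values near 0 of the last 2 Sp110 probe sets crossed it under some alternatives. Tdpoz1 with siRNA #1 reached 0 without the first control array and 0.53 without the second. Of 214 member values between the siRNAs, 208 moved by less than the spread between replicates, and the largest move was 0.22. The median over members was 3.49 (both siRNAs), 4.55 (siRNA #2) and 2.43 (siRNA #1) above control without probe sets below the median signal, and 2.50 and 3.12 (both siRNAs, siRNA #2) without those ending in _x_at or _s_at. Leaving out each array gave 1.89 to 1.94 between the siRNAs and, against control, 2.70 to 2.84 for both siRNAs, 3.54 to 3.73 for siRNA #2 and 1.94 to 2.06 for siRNA #1.

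Counts over all probe sets moved more. Between the siRNAs 432 were higher and 877 lower. The numbers were 76 and 31 without a variance trend and 263 and 299 at an adjusted p under 0.01. After quantile normalization 645 were higher and 541 lower, and median centring of the arrays gave 370 and 1223. Those lower were 1549 without dim probe sets. Leaving out each array gave 151 to 1944 higher and 116 to 4080 lower, the highest of both without the second siRNA #1 array. At 1 probe set per gene, 3701 rose and 3945 fell for the mean of both siRNAs, 3668 and 3143 with siRNA #1, and 3227 and 3952 with siRNA #2. With siRNA #1, 3559 fell at an adjusted p under 0.01.

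Of the other 2-cell-stage genes higher with siRNA #2 than with siRNA #1, 2 were called without a variance trend and 3 to 4 with each array left out. The cause was not tested. With the replicate block 452 probe sets were higher and 837 lower between the siRNAs, with 4 of the other 2-cell-stage genes higher. Zfp42 lost its call there (adjusted p = 0.054). Of 1236 values of named genes that are no members, 1160 stayed on their side of the threshold, 52 lost a call, 24 gained one and none reversed. Low signals limit the members with dim control arrays, whose differences from control may be compressed.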

Other observations

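Among probe sets outside the set, chosen after their values were seen, the next largest differences of siRNA #2 minus siRNA #1 were in Sprr2a copies (an _x_at probe set of 3 symbols), which encode small proline-rich proteins of epithelial barriers, and in the probe set of Gm13057, Gm13040 and Gm13043. The Sprr2a probe set averaged 10.06 with siRNA #2, 8.14 with siRNA #1 and 7.48 in control, a difference of 1.92 between the siRNAs. The Gm13057 probe set averaged 8.53 with siRNA #2, 6.62 with siRNA #1 and 4.76 in control, a difference of 1.91.

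At the opposite end, Otx2, a homeobox factor of the primed epiblast and forebrain, averaged 9.36 with siRNA #2, 10.74 with siRNA #1 and 9.57 in control. Aspa, which encodes aspartoacylase, averaged 5.24 with siRNA #2, 6.80 with siRNA #1 and 5.13 in control. Both were highest with siRNA #1, unlike the members. In the list of other 2-cell-stage genes, Pramel6, Pramel7 and Zfp750 also had their highest mean with siRNA #1.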
